A study of Homo sapiens with 32 samples.

Results

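Expression of 9 genes of homologous recombination and DNA damage signalling (ATM, ATR, CHEK1, CHEK2, BRCA1, PALB2, BRCA2, FANCD2 and FANCI) was followed across 4 human endometrial cancer cell lines treated with a splicing kinase inhibitor, a taxane or both. The genes were taken by name, with earlier results of these data known, from a table of 35238 genes, of which 17011 passed a filter on low values and were tested. All 9 passed the filter. They were picked as long repair genes of the kind often reported to be lost when RNA processing is inhibited.

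Each line was given vehicle (0.1% DMSO), paclitaxel, SM08502 or the combination of both drugs for 24 h, with 2 libraries in each of the 16 groups and 32 libraries in all. SM08502 is an inhibitor of the CDC-like kinases (CLKs), which phosphorylate splicing factors, and paclitaxel is a taxane that stabilizes microtubules. Ishikawa cells were labelled CTNNB1-wildtype, and Ishikawa-S33Y, SNGM and HEC265 cells CTNNB1-mutated; CTNNB1 encodes beta-catenin. Each drug was given at the line's own IC50, so doses differed between lines. Paclitaxel was used at 11 nM for Ishikawa, 6 nM for Ishikawa-S33Y, 11.7 nM for SNGM and 5.6 nM for HEC265. SM08502 was used at 80 nM, 85 nM, 350.7 nM and 149 nM in the same order of lines. No group received a DNA-damaging agent as such. RNA input was 350 ng for the Ishikawa libraries and 500 ng for those of the other lines. The libraries of a group came from cells plated in duplicate. The p-values therefore rest on the spread between duplicate cultures, pooled over the 16 groups of all lines, and on no wider variation.

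Homologous recombination repairs breaks that cross both DNA strands by copying an intact sister molecule. ATM and ATR are the large kinases that sense damage, ATM at broken ends and ATR at single-stranded DNA of stalled forks, and CHEK2 and CHEK1 are their respective effector kinases, which halt the cell cycle. BRCA1 promotes the trimming of broken ends and, through PALB2, brings in BRCA2, which acts in the strand exchange that follows. FANCD2 and FANCI form the heterodimer at the centre of the Fanconi anaemia pathway, which unhooks crosslinks between DNA strands. Long repair genes, BRCA1, ATM, ATR and the Fanconi genes among them, are known to depend on the transcription elongation kinases CDK12 and CDK13.

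The upstream sequences of ATM, ATR and PALB2 are shown because these were the members called in at least 2 of the 8 comparisons of a line under SM08502 or the combination with vehicle for which an upstream sequence was held. Each is the 250 bases before the first RefSeq start listed on GRCh38.p14, read 5′ to 3′ on the gene's strand. Capitals mark CCAAT boxes (CCAAT) and cell cycle homology elements (TTTGAA), in either orientation. The ATM sequence lies at chr11:108222817-108223066 on the plus strand, that of ATR at chr3:142578734-142578983 on the minus strand and that of PALB2 at chr16:23641311-23641560 on the minus strand.
ATM: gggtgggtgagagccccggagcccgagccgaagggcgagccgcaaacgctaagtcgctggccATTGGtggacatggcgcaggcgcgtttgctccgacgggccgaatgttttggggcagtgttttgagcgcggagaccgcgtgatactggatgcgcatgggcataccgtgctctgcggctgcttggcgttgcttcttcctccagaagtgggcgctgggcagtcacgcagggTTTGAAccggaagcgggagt
ATR: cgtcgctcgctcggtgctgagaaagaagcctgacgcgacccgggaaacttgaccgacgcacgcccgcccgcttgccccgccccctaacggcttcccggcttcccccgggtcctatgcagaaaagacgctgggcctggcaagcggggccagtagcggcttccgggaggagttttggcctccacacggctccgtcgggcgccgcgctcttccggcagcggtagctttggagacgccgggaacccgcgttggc
PALB2: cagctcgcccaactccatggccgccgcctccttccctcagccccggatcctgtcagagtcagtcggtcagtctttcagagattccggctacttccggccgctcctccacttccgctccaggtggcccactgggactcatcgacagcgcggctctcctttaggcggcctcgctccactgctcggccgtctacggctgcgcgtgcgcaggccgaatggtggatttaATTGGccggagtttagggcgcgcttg

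The ATM window held 1 CCAAT box and 1 TTTGAA, the PALB2 window 1 CCAAT box, and the ATR window neither. RefSeq lists a second ATM start, whose window (chr11:108223075-108223324) held 1 CCAAT box and no TTTGAA. Over 27305 RefSeq windows of the same length, CCAAT was found in 33.04% and TTTGAA in 13.6%. The letters TTTCGCGC, TTTGGCGC, TTTCCCGC and TTTGCCGC, forms of the E2F site of S phase genes, were found in 2.79% of the windows and in none of the 3 shown, again on both strands. The matches are a description of these letters. The start of ATM lies 429 bp from that of NPAT, which is read in the opposite direction. NPAT changed by +0.17 for Ishikawa, +0.36 for Ishikawa-S33Y, +0.02 for SNGM and +0.30 for HEC265 on the log2 scale under SM08502, beside +0.61, +0.43, −0.04 and +0.37 for ATM.

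Levels are given in CPM, counts per 1000000 reads counted, and changes as differences of log2(CPM + 1) ± SE, with n = 2 libraries a group and p-values adjusted over the 17011 genes. A change was called at an adjusted p below 0.05. Total reads, in units of 1000000, ran from 13.0 to 34.1 in 30 libraries, but 2 combination libraries were shallow: replicate 2 of Ishikawa-S33Y had 2.99 and replicate 2 of SNGM 1.61. CHEK2, the member with the fewest reads, was read 12 times in that SNGM library. Epithelial markers were present in all lines, their sum over 7 genes lying between 956 and 3495 CPM. Under SM08502 the mean over lines was lower for 5 of these 7 genes. The markers only check the labels of the lines, and a change of cell identity was not tested. Of the markers of other cells, the fibroblast collagen COL1A1 made up most of the stromal sum of 712 to 1164 CPM in Ishikawa-S33Y, against 30.3 to 196 CPM in Ishikawa and at most 7.48 CPM in the others. A score of RNA length, the mean log2 level of 45 genes of long proteins minus that of 80 ribosomal protein genes, lay between −3.08 and −1.33 in the Ishikawa libraries and between −1.71 and 0.19 in the other lines. In Ishikawa it differed between replicates, most with paclitaxel, at −1.33 and −3.04.

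The 9 genes did not move together under SM08502. Averaged over the 4 lines, SM08502 raised ATR by 0.47 ± 0.05 (adjusted p = 1.8e-07) and ATM by 0.34 ± 0.07 (adjusted p = 0.00038), and lowered FANCI (log2 change −0.41 ± 0.07, adjusted p = 7.8e-05). The other 6 members were not called: PALB2 +0.13, BRCA2 +0.14, FANCD2 +0.12, CHEK1 −0.06, BRCA1 −0.17 and CHEK2 −0.24. Of all genes tested, 38.5% were called in this comparison, 22.6% higher and 15.8% lower, so 3 of 9 members is a share close to that background. The median change was +0.12 over the 9 members and +0.05 over all genes.

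With the combination, the mean over lines rose for ATR by 0.49 ± 0.05 (adjusted p = 6e-08) and for ATM by 0.43 ± 0.07 (adjusted p = 1.7e-05). It fell for FANCI (−0.51 ± 0.07, adjusted p = 4e-06) and for CHEK2 (−0.39 ± 0.10, adjusted p = 0.0027). Here 49.1% of all genes were called, against 4 of 9 members. Both averages share the vehicle libraries. These 7 calls of the averages were kept under every alternative tried. Without both shallow libraries the CHEK2 average was −0.24 (adjusted p = 0.019).

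**Figure D1:**
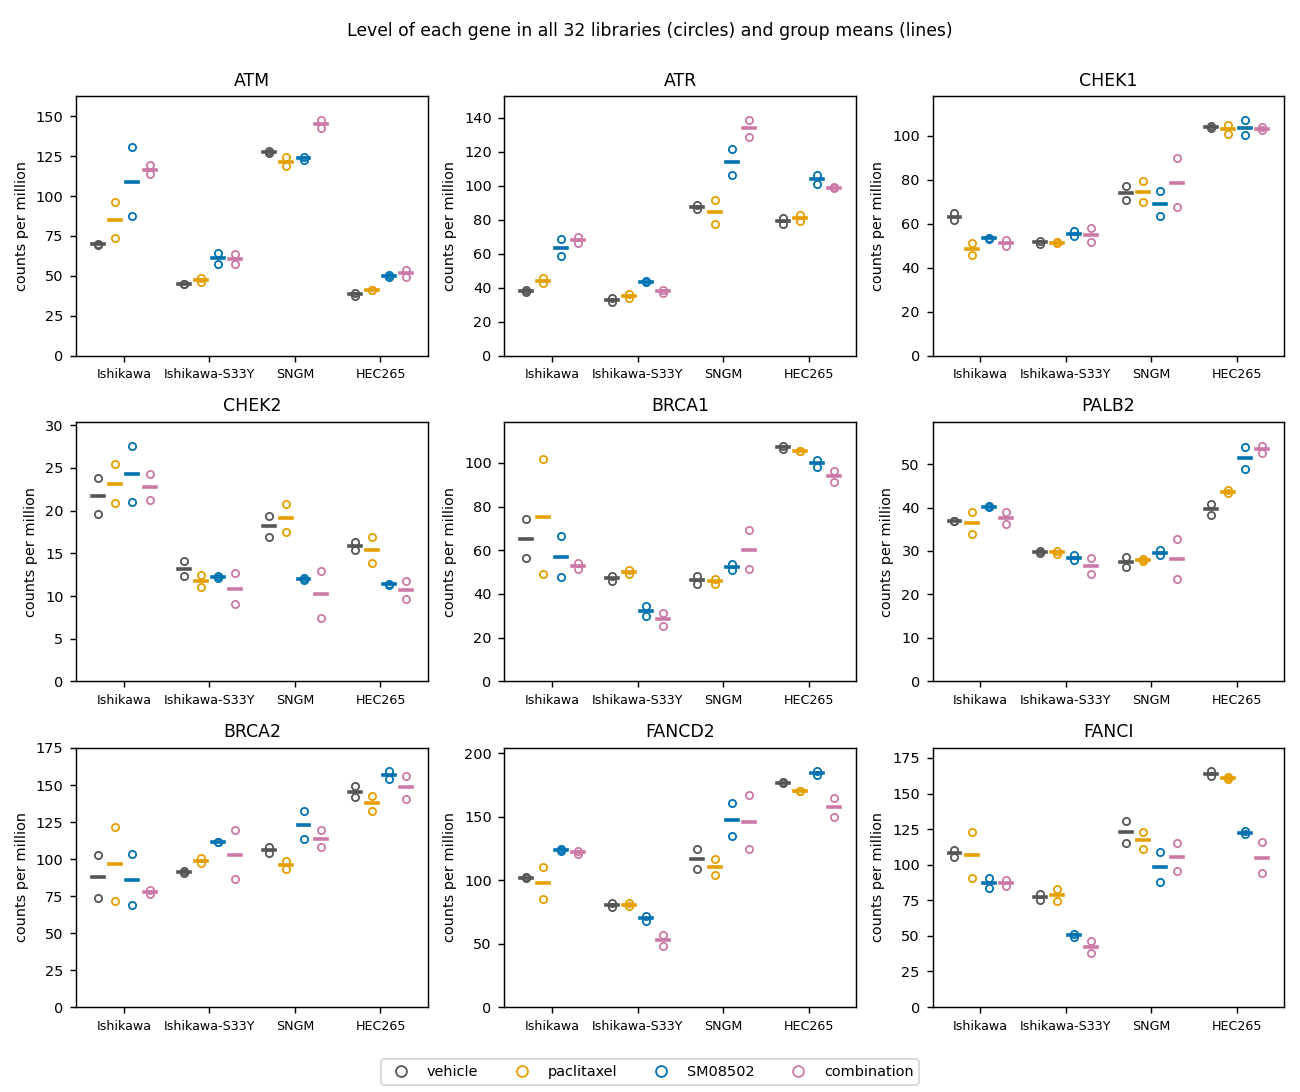
Level of each of the 9 genes (vertical axis, CPM, from 0) in the 32 libraries, by line and treatment; circles are libraries and bars the means of 2. ATR lies higher with SM08502 than with vehicle in all 4 lines, and FANCI lower.

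ATR, the kinase of stalled replication forks, was the member called in most comparisons. In Ishikawa it stood at 37.2 and 38.8 CPM with vehicle, 42.7 and 45.7 with paclitaxel, 58.7 and 68.6 with SM08502 and 69.7 and 66.1 with the combination. In Ishikawa-S33Y the values were 31.6 and 34.2, 33.7 and 36.2, 43.2 and 44.0, and 37.1 and 38.8 CPM in the same order. Both SM08502 libraries lay above both vehicle libraries in each of these lines. SNGM had 88.6 and 86.3 CPM with vehicle, 91.4 and 77.5 with paclitaxel, 106 and 122 with SM08502 and 129 and 139 with the combination. HEC265 had 81.1 and 77.3 CPM with vehicle, 79.3 and 83.0 with paclitaxel, 106 and 101 with SM08502 and 99.3 and 98.6 with the combination. The SM08502 and vehicle libraries did not overlap in these lines either. The share of all genes without such overlap was not counted. Lack of overlap, here and for the members below, therefore only describes the values.

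Under SM08502, ATR was higher by 0.72 ± 0.10 for Ishikawa (adjusted p = 4.5e-05), 0.40 ± 0.10 for Ishikawa-S33Y (0.0036), 0.38 ± 0.10 for SNGM (0.017) and 0.39 ± 0.10 for HEC265 (0.0088). It was the only member called in all 4 lines. How many of all genes were called in all 4 lines was not counted. The shares of all genes called, in either direction, were 15.2% for Ishikawa, 29.1% for Ishikawa-S33Y, 7.86% for SNGM and 14.7% for HEC265, and the members called numbered 2, 3, 1 and 3. Of these 2, 2, 1 and 2 were higher, against 6.50%, 18.5%, 3.80% and 9.27% of all genes. In Ishikawa-S33Y and HEC265 1 member each was lower, and none in the others, against 10.6%, 5.39%, 8.68% (Ishikawa) and 4.06% (SNGM) of all genes. A difference of the change between lines was not called (F test, adjusted p = 0.17; unadjusted p = 0.049). No member was called by that test in either limma fit, where 12.4% of all genes were, and 3 members had an unadjusted p below 0.05: ATM, ATR and FANCD2. With the combination ATR rose by 0.82 ± 0.10 in Ishikawa (adjusted p = 7e-06), 0.61 ± 0.10 in SNGM (0.00021) and 0.32 ± 0.10 in HEC265 (0.022), while in Ishikawa-S33Y its change was +0.20 ± 0.10 (0.098). This change differed between lines (F test, adjusted p = 0.0066).

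The ATR calls in Ishikawa held without each library in turn, and so did that of the combination in SNGM. A fit to the libraries of 1 line alone ended the SM08502 call in Ishikawa (adjusted p = 0.070) and in SNGM (0.19) and put the SNGM combination at 0.050. The SM08502 call ended in Ishikawa-S33Y without vehicle replicate 1 (0.054), and in HEC265 without vehicle replicate 2 (0.093) or SM08502 replicate 1 (0.091). In SNGM it ended without vehicle replicate 1, vehicle replicate 2 or SM08502 replicate 2, with adjusted p between 0.075 and 0.22, and in HEC265 the combination call ended without any 1 of its 4 libraries, between 0.071 and 0.15. Re-centring each library on its median put ATR under SM08502 at an adjusted p of 0.053 for Ishikawa-S33Y, 0.066 for SNGM and 0.16 for HEC265. It also ended the HEC265 combination call (0.32), as quantile normalization did (0.070), and quantile normalization ended the SNGM call under SM08502 (0.068).

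ATM, the kinase of broken DNA ends, was at 69.5 and 70.1 CPM in Ishikawa with vehicle, 73.8 and 96.3 with paclitaxel, 87.2 and 131 with SM08502 and 114 and 119 with the combination. In Ishikawa-S33Y it was at 45.1 and 44.8, 46.2 and 48.7, 57.2 and 64.6, and 63.5 and 57.2 CPM. Neither group with SM08502 overlapped vehicle in these lines, although the Ishikawa replicates under SM08502 lay far apart. In SNGM it was at 127 and 128 CPM with vehicle, 125 and 119 with paclitaxel, 123 and 124 with SM08502 and 148 and 142 with the combination. In HEC265 it was at 37.6 and 39.5, 41.1 and 40.9, 50.7 and 49.6, and 49.2 and 53.9 CPM. SNGM had the highest vehicle level. Its SM08502 libraries lay slightly below vehicle and its combination libraries above it. Whether the vehicle level bears on the change was not tested.

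SM08502 raised ATM by 0.61 ± 0.13 in Ishikawa (adjusted p = 0.0039) and 0.43 ± 0.13 in Ishikawa-S33Y (0.020). The changes in HEC265 (+0.37 ± 0.13, 0.069) and SNGM (−0.04 ± 0.13, 0.93) were not called. The difference between lines was not called (F test, adjusted p = 0.091; unadjusted p = 0.017), and it was called without SM08502 replicate 1 of Ishikawa (0.0027). With the combination ATM rose by 0.73 ± 0.13 in Ishikawa (0.00061), 0.41 ± 0.13 in Ishikawa-S33Y (0.017) and 0.41 ± 0.13 in HEC265 (0.034), and in SNGM it changed by +0.19 ± 0.13 (0.37).

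One library carried much of the Ishikawa value: without SM08502 replicate 2 the ATM change was +0.32 (adjusted p = 0.14). A fit to Ishikawa alone ended both ATM calls (0.21 with SM08502, 0.11 with the combination). With the RNA length score as a covariate the Ishikawa changes were +0.54 and +0.61. In Ishikawa-S33Y the SM08502 call ended without vehicle replicate 1, vehicle replicate 2 or SM08502 replicate 2 (0.083 to 0.18), and the combination call without vehicle replicate 1, vehicle replicate 2 or combination replicate 1 (0.066 to 0.11). The HEC265 combination call of ATM ended without any 1 of its 4 libraries (0.068 to 0.24). Re-centring on library medians gave 0.11 and 0.062 in Ishikawa-S33Y and 0.27 in HEC265, quantile normalization 0.088, 0.053 and 0.19, and testing without the filter on low values 0.057 in HEC265.

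**Figure D2:**
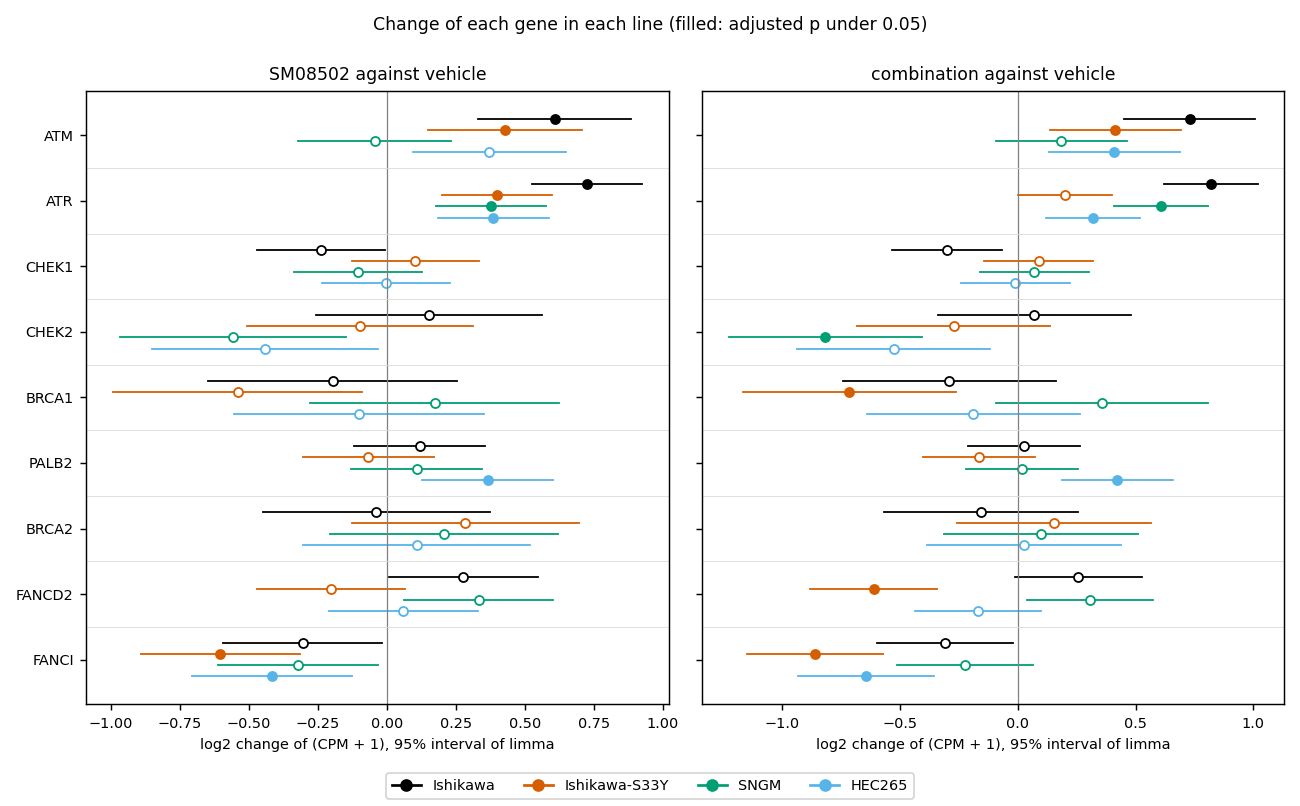
Change of each gene (rows) in each line (colours) with SM08502 (left) or the combination (right) against vehicle, as log2 differences (horizontal axis) with 95% intervals of limma; filled circles passed an adjusted p of 0.05. ATR lies above 0 in every line and treatment and FANCI below 0. Each other gene falls on both sides, ATM only through SNGM with SM08502.

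The effector kinases were not called in any line under SM08502 alone. CHEK1, which acts downstream of ATR, was not called in any drug comparison. Its libraries ran from 45.7 to 64.6 CPM for Ishikawa, 50.9 to 58.2 for Ishikawa-S33Y, 63.5 to 89.6 for SNGM and 100.1 to 107 for HEC265 over all treatments. Its changes under SM08502 were −0.24 for Ishikawa, +0.10 for Ishikawa-S33Y, −0.10 for SNGM and 0.00 for HEC265. With the combination it changed by −0.30 ± 0.11 in Ishikawa (adjusted p = 0.056), where all 6 drug-treated libraries, at 45.7 to 53.5 CPM, lay below the vehicle libraries at 64.6 and 61.6.

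CHEK2, downstream of ATM, was at 19.4 and 16.97 CPM in SNGM with vehicle, 20.7 and 17.4 with paclitaxel, 12.1 and 11.9 with SM08502 and 12.9 and 7.47 with the combination. In HEC265 it was at 16.3 and 15.4, 16.9 and 13.9, 11.3 and 11.5, and 11.8 and 9.70 CPM. In both lines all 4 libraries with SM08502 lay below vehicle and paclitaxel. In Ishikawa the ranges overlapped, at 19.6 to 23.8 CPM with vehicle and 21.0 to 27.6 CPM with SM08502, alone or combined. In Ishikawa-S33Y they overlapped as well, at 12.3 to 14.0 and 9.03 to 12.7 CPM.

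The one CHEK2 call in a single line was the fall in SNGM with the combination (−0.82 ± 0.20, adjusted p = 0.0065). Without the shallow combination replicate 2 the change was −0.46 (0.17), and without vehicle replicate 1 it was −0.73 (0.062). The fit to SNGM alone (0.14) and a weighted fit to recovered reads (0.051) ended it too. Under SM08502 alone CHEK2 changed by −0.56 ± 0.20 in SNGM (0.093), −0.44 ± 0.20 in HEC265 (0.15), −0.10 ± 0.20 in Ishikawa-S33Y and +0.15 ± 0.20 in Ishikawa.

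BRCA1, which acts early in recombination, was at 46.1 and 48.2 CPM in Ishikawa-S33Y with vehicle, 49.1 and 50.9 with paclitaxel, 34.3 and 30.0 with SM08502 and 25.5 and 31.4 with the combination. In SNGM the order was the opposite, at 44.4 and 48.2, 44.7 and 47.0, 53.6 and 51.0, and 51.3 and 69.1 CPM. In HEC265 it was at 106 and 108, 105 and 106, 101 and 98.2, and 96.3 and 91.4 CPM. The groups with SM08502 did not overlap vehicle in these 3 lines, below it in 2 and above it in SNGM. The Ishikawa replicates were too far apart to be ordered, at 56.4 and 74.2 CPM with vehicle, 102 and 48.9 with paclitaxel, 66.4 and 47.7 with SM08502 and 54.0 and 51.4 with the combination. In each of these 4 pairs BRCA1 was higher in the library with the higher RNA length score; the part of RNA length in its Ishikawa values was not tested beyond the covariate, under which the SM08502 change was −0.07.

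BRCA1 fell in Ishikawa-S33Y with the combination (−0.72 ± 0.22, adjusted p = 0.012), and its change there under SM08502 was −0.54 ± 0.22 (0.067). The call ended without vehicle replicate 2 (0.065) and without combination replicate 1 (0.098), where the change was −0.57. Its other changes were −0.20 and −0.29 in Ishikawa, +0.17 and +0.36 in SNGM and −0.10 and −0.19 in HEC265 for SM08502 and the combination, none called. The change with the combination was larger by 1.07 ± 0.31 in SNGM than in Ishikawa-S33Y (0.016), a difference that lost its call without both shallow libraries (+1.01, 0.063). Over the 4 lines it was not called (F test, adjusted p = 0.063).

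PALB2, the bridge between BRCA1 and BRCA2, rose in HEC265. There it was at 40.9 and 38.3 CPM with vehicle, 43.9 and 43.4 with paclitaxel, 48.8 and 53.8 with SM08502 and 54.2 and 52.6 with the combination, so the 4 libraries with SM08502 lay above the other 4. The rise was 0.36 ± 0.11 with SM08502 (adjusted p = 0.035) and 0.42 ± 0.11 with the combination (0.011). In the other lines PALB2 ranged from 33.9 to 40.3 CPM in Ishikawa, 24.7 to 30.1 in Ishikawa-S33Y and 23.6 to 32.7 in SNGM over all treatments, and its changes lay between −0.17 and +0.12. The SM08502 call ended without any 1 of its 4 libraries (0.073 to 0.27) and after re-centring (0.090) or quantile normalization (0.080). The combination call ended without vehicle replicate 2, combination replicate 1 or combination replicate 2 (0.059 to 0.10).

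BRCA2, which acts after PALB2, was not called in any drug comparison. Its libraries spanned 68.9 to 122 CPM for Ishikawa, 86.5 to 119 for Ishikawa-S33Y, 93.2 to 133 for SNGM and 133 to 159 for HEC265. Its changes under SM08502 were −0.04 for Ishikawa, +0.28 for Ishikawa-S33Y, +0.21 for SNGM and +0.11 for HEC265, each ± 0.20. The 95% interval of its change averaged over lines ran from −0.07 to +0.35 under SM08502.

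FANCI, the partner of FANCD2, was lower with SM08502 in every line. In Ishikawa it was at 110 and 105 CPM with vehicle, 123 and 90.6 with paclitaxel, 83.6 and 90.7 with SM08502 and 89.0 and 84.9 with the combination. In Ishikawa-S33Y it was at 75.1 and 79.2, 74.4 and 83.2, 51.3 and 49.5, and 37.9 and 46.5 CPM. The vehicle libraries lay above all 4 libraries with SM08502 in both lines. In SNGM it was at 130 and 115, 123 and 111, 87.7 and 109, and 95.5 and 115 CPM. In HEC265 it was at 166 and 162, 162 and 160, 123 and 121, and 116 and 93.9 CPM, with no overlap. In SNGM combination replicate 2, the shallow library, lay at 115.1 CPM, next to the lower vehicle library at 115.3.

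Under SM08502 FANCI fell in Ishikawa-S33Y (−0.60 ± 0.14, adjusted p = 0.0025) and HEC265 (−0.42 ± 0.14, 0.048). Its changes in Ishikawa (−0.31 ± 0.14, 0.15) and SNGM (−0.32 ± 0.14, 0.19) were of the same sign and not called, and a difference between lines was not called (F test, adjusted p = 0.62). With the combination it fell in Ishikawa-S33Y (−0.86 ± 0.14, 4.7e-05) and HEC265 (−0.65 ± 0.14, 0.0021), with −0.31 in Ishikawa and −0.22 in SNGM. Both Ishikawa-S33Y calls held under every alternative. The HEC265 call with SM08502 ended without any 1 of its 4 libraries (0.16 to 0.21), without the filter on low values (0.084), without the intensity trend (0.065) and with the replicate number as a block (0.050), and that with the combination ended without combination replicate 2 (−0.49, 0.067).

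FANCD2 was not called lower outside Ishikawa-S33Y. It was at 102 and 102 CPM in Ishikawa with vehicle, 111 and 85.3 with paclitaxel, 124 and 123 with SM08502 and 121 and 123 with the combination. In Ishikawa-S33Y it was at 79.2 and 82.0, 79.6 and 81.8, 72.1 and 67.8, and 48.2 and 56.8 CPM. The first line was higher and the second lower with SM08502, without overlap with vehicle. In SNGM it was at 125 and 109, 117 and 104, 135 and 161, and 125 and 167 CPM. In HEC265 it was at 177 and 176, 170 and 171, 183 and 186, and 165 and 150 CPM.

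The only FANCD2 call was the fall in Ishikawa-S33Y with the combination (−0.61 ± 0.13, adjusted p = 0.0007), which held under every alternative. Its changes under SM08502 were +0.28 ± 0.13 for Ishikawa (0.16), −0.20 ± 0.13 for Ishikawa-S33Y (0.26), +0.33 ± 0.13 for SNGM (0.13) and +0.06 ± 0.13 for HEC265 (0.89). Its change with the combination differed between lines (F test, adjusted p = 0.0023), being lower in Ishikawa-S33Y than in Ishikawa by 0.87 ± 0.18 (0.0049) and than in SNGM by 0.92 ± 0.18 (0.0013). That of PALB2 (0.044) and FANCI (0.049) differed as well, against 27.1% of all genes; both of these last calls ended when any of several single libraries was left out.

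Since FANCD2 and FANCI act as a pair, their ratio within a library was taken, after their values had been seen, as a description without a test. The ratio of CPM + 1, FANCI to FANCD2, was 1.09 and 1.03 in Ishikawa with vehicle, 1.11 and 1.06 with paclitaxel, 0.676 and 0.738 with SM08502 and 0.739 and 0.692 with the combination. In Ishikawa-S33Y it was 0.948 and 0.965, 0.936 and 1.02, 0.715 and 0.734, and 0.789 and 0.821. In SNGM it was 1.04 and 1.06, 1.05 and 1.07, 0.654 and 0.682, and 0.768 and 0.690. The HEC265 ratios were 0.935 and 0.918, 0.953 and 0.940, 0.677 and 0.655, and 0.704 and 0.630. All 16 libraries with SM08502, alone or combined, lay below all 16 without it. How many other gene pairs separate as fully was not counted, so this is not read as particular to the pair. The log2 change of the ratio under SM08502 was −0.58 for Ishikawa, −0.40 for Ishikawa-S33Y, −0.65 for SNGM and −0.48 for HEC265, against a replicate SD of 0.06. The ratio itself also depends on the lengths of both transcripts, so only its changes are read.

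**Figure D3:**
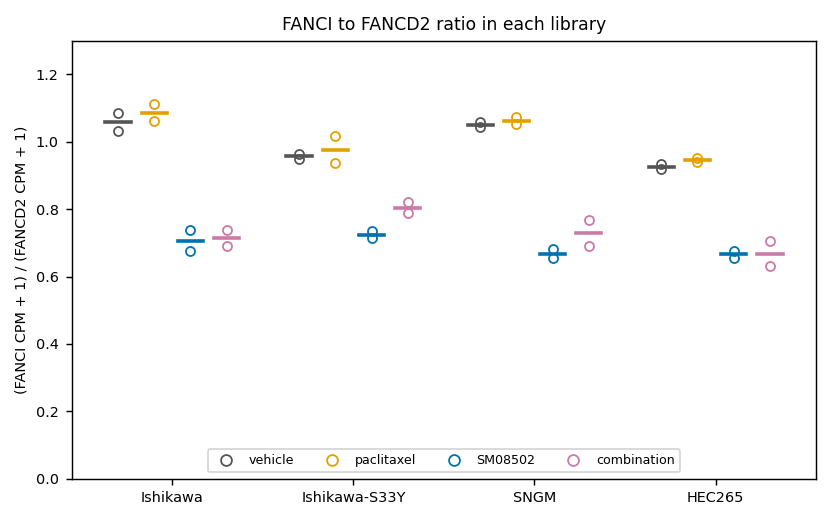
FANCI to FANCD2 ratio of CPM + 1 (vertical axis, from 0) in each of 32 libraries by line and treatment; circles are libraries and bars means of 2. The libraries with SM08502 lie between 0.630 and 0.821 and those without it between 0.918 and 1.11.

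Paclitaxel alone called none of the 9 genes in any line with limma, on log2 values or on recovered reads, and 2 of them, ATR and CHEK1, had an unadjusted p below 0.05 in Ishikawa and none in the other lines. Over all genes it called 0.0118% for Ishikawa, 0% for Ishikawa-S33Y, 0.0176% for SNGM and 0.00588% for HEC265. The largest member changes were in Ishikawa, −0.38 ± 0.11 for CHEK1 (adjusted p = 0.34) and +0.27 ± 0.13 for ATM (0.69). Adding paclitaxel to SM08502 called no member in either fit (FANCD2 in Ishikawa-S33Y and ATR in SNGM had an unadjusted p below 0.05), and called 0%, 0.129%, 0.253% and 0.00588% of all genes in the 4 lines. The largest fall on that comparison was that of FANCD2 in Ishikawa-S33Y (−0.41 ± 0.13, 0.17) and the largest rises were those of ATM and ATR in SNGM (+0.23 each). At 2 libraries a group, changes of this size may be missed. Against vehicle the combination called 2, 4, 2 and 4 members in Ishikawa, Ishikawa-S33Y, SNGM and HEC265, where 22.8%, 42.0%, 18.4% and 19.5% of all genes were called. Higher were 2, 1, 1 and 3 members, beside 11.6%, 24.0%, 10.8% and 12.4% of all genes, and lower 0, 3, 1 and 1, beside 11.2%, 18.0%, 7.54% and 7.16%.

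Before any drug the lines already differed. The vehicle level of all 9 genes differed over the 4 lines (F test), where 86.9% of all genes did. ATM varied most in log2 terms, with 127 ± 0.881 CPM (SD, n = 2) in SNGM, 69.8 ± 0.424 in Ishikawa, 44.96 ± 0.196 in Ishikawa-S33Y and 38.6 ± 1.36 in HEC265. Only the last neighbours in that order were not told apart (log2 difference −0.22, adjusted p = 0.18). ATR formed pairs, with SNGM at 87.5 ± 1.64 and HEC265 at 79.2 ± 2.72 CPM (0.22), and Ishikawa at 38.0 ± 1.13 and Ishikawa-S33Y at 32.9 ± 1.85 CPM (0.086). Between the pairs ATR differed by 1.04 to 1.39 on the log2 scale.

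HEC265 had the highest mean vehicle level of the remaining genes except CHEK2. BRCA1 was at 107 ± 1.05 CPM there, above Ishikawa at 65.3 ± 12.5 (log2 difference 0.72, adjusted p = 0.0065), or by 0.52 without Ishikawa vehicle replicate 1 (0.097), while Ishikawa, Ishikawa-S33Y at 47.2 ± 1.47 and SNGM at 46.3 ± 2.72 were not told apart. BRCA2 was at 145 ± 5.05 CPM in HEC265, 106 ± 2.91 in SNGM, 91.3 ± 0.876 in Ishikawa-S33Y and 87.9 ± 20.5 in Ishikawa, with no neighbours told apart. CHEK1 was at 104 ± 0.684 CPM in HEC265, 74.1 ± 4.52 in SNGM, 63.1 ± 2.10 in Ishikawa and 51.5 ± 0.881 in Ishikawa-S33Y, where only SNGM and Ishikawa were not told apart with all libraries (0.078); the last step, from Ishikawa to Ishikawa-S33Y, was not called without any 1 of its 4 libraries (0.071 to 0.16). The mean log2 level of 13 S phase genes was also highest in HEC265, at 7.29 in both vehicle libraries against 6.11 to 6.72 in the other lines; its part in these differences was not tested. With SM08502 that mean was 7.46 and 7.52 in HEC265, 6.42 to 6.56 in Ishikawa, 6.04 to 6.07 in Ishikawa-S33Y and 6.37 to 6.49 in SNGM.

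FANCD2 was at 177 ± 0.476 CPM in HEC265, 117 ± 11.3 in SNGM, 102 ± 0.258 in Ishikawa and 80.6 ± 2.01 in Ishikawa-S33Y. FANCI followed the same order, at 164 ± 2.56, 123 ± 10.7, 108 ± 3.65 and 77.1 ± 2.90 CPM. For both, only SNGM and Ishikawa were not told apart with all libraries (adjusted p = 0.20 and 0.25). The FANCI difference of HEC265 from SNGM lost its call without SNGM vehicle replicate 2, HEC265 vehicle replicate 1 or HEC265 vehicle replicate 2 (0.052 to 0.13). PALB2 was at 39.6 ± 1.82 CPM in HEC265 and 36.9 ± 0.00581 in Ishikawa (0.47), and lower in Ishikawa-S33Y at 29.8 ± 0.393 and SNGM at 27.5 ± 1.71 (0.39). CHEK2 was highest in Ishikawa at 21.7 ± 2.99 CPM, followed by SNGM at 18.2 ± 1.69, HEC265 at 15.8 ± 0.627 and Ishikawa-S33Y at 13.2 ± 1.22, with no neighbours told apart. Ishikawa-S33Y was lower than Ishikawa for 6 of the 9 genes, PALB2, ATM, CHEK1, CHEK2, FANCD2 and FANCI, where 28.2% of all genes were lower. Of these 6 calls, only that of ATM remained without vehicle replicate 1 of either line, and those of ATM, CHEK2 and FANCI without vehicle replicate 2 of either line. PALB2 (adjusted p up to 0.13), CHEK1 (up to 0.16) and FANCD2 (up to 0.15) lost the call without any 1 of the 4 libraries. Re-centring ended it for CHEK1 (0.12) and FANCD2 (0.076), and the length score as a covariate for ATM (0.065), CHEK1 (0.11) and CHEK2 (0.19). With vehicle, Ishikawa also differed from each other line in RNA input and RNA length score. In every comparison with Ishikawa their part cannot be told apart from the line. With that score as a covariate the BRCA1 difference of HEC265 from Ishikawa turned from +0.72 to −0.18 and that of BRCA2 from +0.74 to −0.11.

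Members of like span took different values under SM08502. ATM spans 146 kb, ATR 129 kb and BRCA1 126 kb in RefSeq, all in the longest of 5 equal groups of 14467 tested genes with a span, which began at 99.2 kb. The other members span 38.1 kb (PALB2, longer than 55.4% of these genes) to 85.2 kb (BRCA2, longer than 76.7%), where the median is 31.4 kb. In that group the median change under SM08502, averaged over lines, was −0.02, with quartiles of −0.21 and +0.14, against medians of +0.04 to +0.07 in the other groups. Among the 3 longest members by these spans ATM and ATR stood above the upper quartile at +0.34 and +0.47, and BRCA1 at −0.17 was between the quartiles. The BRCA1 span runs from the first of 2 listed starts (window chr17:43170328-43170577). From the second (window chr17:43125365-43125614) it would be below 99.2 kb. BRCA1 would then fall in the next group, and −0.17 is below the lower quartile of that group (−0.15). FANCI, at 73.3 kb, and CHEK2, at 54.1 kb and not called, were below the lower quartile of their group (−0.15), and FANCD2, at 75.5 kb, was not.

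**Figure D4:**
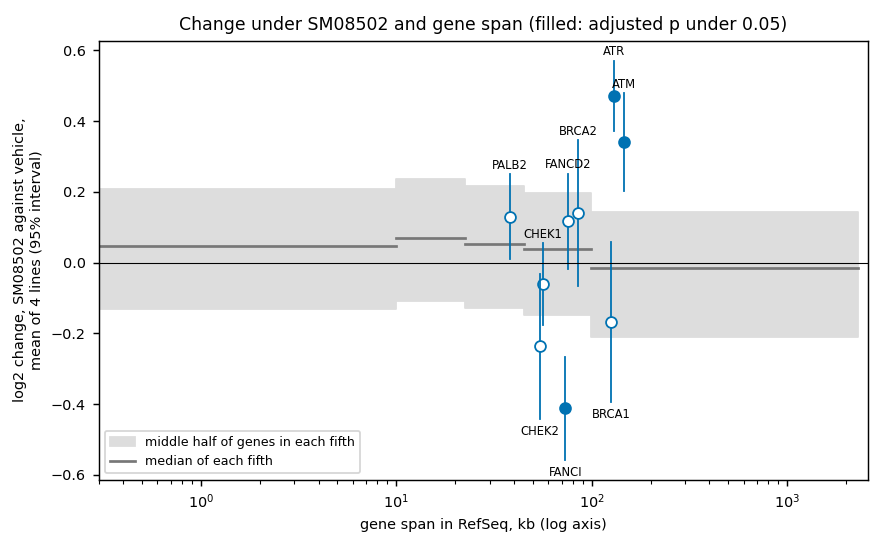
Change under SM08502 averaged over 4 lines (vertical axis, log2, 95% intervals of limma) against gene span (horizontal log axis, kb) for the 9 genes; grey bands are the quartiles and grey lines the medians of all tested genes in 5 equal groups by span. ATM and ATR lie above the band of the longest group, and FANCI and CHEK2 (open circle, not called) lie below the band of theirs.

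The wider pathway moved in both directions under SM08502, averaged over lines. Of 18 other checkpoint genes, 6 rose and 2 fell (median +0.08). RAD9A and RAD1, subunits of the clamp that activates ATR, rose by 0.49 ± 0.09 and 0.34 ± 0.05, while TELO2, a chaperone factor that stabilizes ATM and ATR proteins, fell (−0.47 ± 0.14), as did TP53BP1, which limits end trimming (−0.43 ± 0.09). The adjusted p-values of these 4 ran from 3.5e-05 to 0.012. Of 15 other Fanconi genes, 5 rose and none fell (median +0.05), led by the core complex members FANCB (+0.41 ± 0.10) and FANCL (+0.40 ± 0.08), the ubiquitin ligase of FANCD2 and FANCI. The share of all genes called higher was 22.6%, so counts of 5 of 15 and 6 of 18 are read against that.

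Of 12 genes of end trimming and BRCA1 complexes, 2 rose and 4 fell, beside 22.6% and 15.8% of all genes. RBBP8, which starts end trimming with BRCA1, rose by 0.40 to 0.53 and UIMC1, a ubiquitin reader of the BRCA1-A complex, by 0.40 to 0.51 in the 4 lines, all called. BRIP1, the helicase that binds BRCA1, fell in all 4 (log2 changes −0.62 to −0.39), and FAM175A, the scaffold of the BRCA1-A complex, fell on average (−0.33 ± 0.08). How many of all genes were called, or moved the same way, in all 4 lines was not counted.

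Of 8 end joining genes, 4 rose and 1 fell, where 22.6% of all genes rose and 15.8% fell. POLQ, the polymerase of microhomology joining, rose by 0.57 ± 0.07 (adjusted p = 3.9e-06) and the nuclease DCLRE1C by 0.37 ± 0.06, whereas PRKDC, the DNA-dependent kinase of the same family as ATM and ATR, fell (−0.42 ± 0.09, 0.00057). Of the elongation kinases, CDK12 rose by 0.47 ± 0.15 and CDK13 by 0.27 ± 0.05, and their cyclin CCNK was not called (+0.19). Of 13 S phase genes, MCM6, a subunit of the replicative helicase, rose by 0.14 ± 0.05 and RRM2, the small subunit of ribonucleotide reductase, fell (−0.51 ± 0.08). The elongation kinases and S phase genes are read against the same 22.6% and 15.8% of all genes. Of 8 genes of G2 and mitosis, none rose and 5 fell (all genes: 22.6% and 15.8%), among them the cyclin CCNA2 (−0.36 ± 0.12) and the mitotic kinase AURKA (−0.29 ± 0.08). The mean log2 level of these 8 genes nevertheless lay higher with SM08502 in Ishikawa-S33Y, at 7.87 and 7.89 against 7.43 and 7.45 with vehicle. It lay lower in SNGM, at 6.72 and 7.08 against 7.43 and 7.59, and in HEC265, at 7.45 and 7.48 against 7.75 and 7.79. In Ishikawa this mean was 7.43 and 7.38 against 7.42 and 7.49. Its part in the members' values was not tested.

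The gene most alike to each member over the 16 group means was sought among 10423 genes with a mean log2 level of at least 3. The Pearson r was 0.97 for ATR with ELP2, 0.97 for ATM with YPEL5, 0.98 for BRCA1 with THNSL1, 0.97 for BRCA2 with SMC3 and 0.97 for PALB2 with CHCHD4. It was 0.99 for CHEK1 with VCP, 0.94 for CHEK2 with ZNF165, 0.97 for FANCD2 with OSBPL9 and 0.98 for FANCI with PRKD3. These are descriptions over group means that share lines, and with this many genes to choose from a high r is found for nearly any pattern.

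The strand of counting is not given in the sources used here, so reads of overlapping genes cannot be told apart. In RefSeq a protein-coding gene overlaps ATM (C11orf65), BRCA2 (ZAR1L), CHEK1 (ACRV1), FANCD2 (FANCD2OS) and FANCI (POLG). BRCA1 is overlapped by 6 entries, none protein-coding, among them the noncoding NBR2 and the pseudogene copy BRCA1P1. PALB2 and CHEK2 have no overlap and ATR only pseudogenes. Of the pseudogene copies of CHEK2 in the table, CHEK2P2 reached at most 0.308 CPM and 3 others were listed at 0. The libraries hold total RNA depleted of ribosomal RNA, and the table has 1 value a gene, so spliced and unspliced RNA were not told apart in any of these levels, nor were protein levels measured.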

How the data were processed

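RNA from 32 cultures of 4 lines was sequenced as ribosomal RNA-depleted libraries (FastSelect, KAPA mRNA HyperPrep, Illumina NovaSeq), per the labels' protocols. The submitters' processing notes name bcl2fastq, kallisto, STAR and GRCh38; what each did, and the gene models and strand setting, is not given in the sources used here. The authors deposited 35238 genes on a log10(CPM + 1) scale; back-transformed they sum to 1000000 in each library, and 100% of them were whole reads within 0.05 read. CPM were put on a log2(CPM + 1) scale, which understates changes of low genes. Genes above 1 CPM in at least 2 libraries were tested with limma 3.58.1 (R 4.3.3), with 16 group means, an intensity trend, 16 residual and 4.901 prior degrees of freedom and Benjamini-Hochberg adjustment, two-sided. The tests were tried on simulated data. Gene spans and upstream sequences came from RefSeq (GRCh38.p14); all 9 genes matched by symbol, and 8 had an upstream sequence, FANCI being the exception. The members are always named; of each other list, the 2 largest called rises and falls averaged over lines under SM08502 (mean log2 level of at least 1) are named, and for each member the most alike gene (mean log2 level of at least 3). The members and lists were chosen with earlier results of these data known. The alternatives were other filters, pseudocount, scalings, fits, covariates and left-out libraries; the RNA length score as a covariate and crossed replicate numbers were added after seeing the data. Depth limits precision most in the 2 shallow libraries. Splicing was not analysed here. The results of 1 further gene list are not reported here.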

Additional observations from a re-analysis of the deposited data

Results flagged for a closer look

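The change with the combination against vehicle differed between pairs of lines for 5 members, by an interaction term in limma adjusted over all genes; doses differed between the lines. ATR changed less in Ishikawa-S33Y than in Ishikawa (difference −0.62 ± 0.14, adjusted p = 0.0065), where 10.5% of all genes differed, and less in HEC265 than in Ishikawa (−0.50 ± 0.14, 0.036; background 4.73%). The FANCD2 change was lower in Ishikawa-S33Y than in Ishikawa (−0.87 ± 0.18, 0.0049). Compared with Ishikawa-S33Y, the change in SNGM was higher for BRCA1 (+1.07 ± 0.31, 0.016), ATR (+0.41 ± 0.14, 0.037), FANCD2 (+0.92 ± 0.18, 0.0013) and FANCI (+0.64 ± 0.20, 0.023), where 22.5% of all genes differed. PALB2 changed more in HEC265 than in Ishikawa-S33Y (+0.59 ± 0.16, 0.017; background 15.1%).

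The groups of Ishikawa-S33Y and SNGM each hold a shallow combination library. Without both, the differences of SNGM from Ishikawa-S33Y were +1.01 for BRCA1 (adjusted p = 0.063), +0.38 for ATR (0.12), +0.82 for FANCD2 (0.0052) and +0.65 for FANCI (0.050), and the PALB2 difference was +0.69 (0.0012). The difference of ATR between HEC265 and Ishikawa was not called without any 1 of its 8 libraries (0.077 to 0.14). The FANCD2 differences and that of ATR between Ishikawa-S33Y and Ishikawa kept their calls without each library in turn. Those of BRCA1, ATR and FANCI between SNGM and Ishikawa-S33Y reached adjusted p-values of 0.072, 0.14 and 0.098 when 1 library was left out, and that of PALB2 0.073.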

How the results depend on the processing

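Of 21 calls of a member in a single line under SM08502 or the combination, 4 were kept under every alternative and 7 without each library in turn; all 7 calls of the averages over lines were kept. Where leaving out a library left 1 library in a group, that library was taken to vary like the other groups. The planned quasi-likelihood test on reads was not run, as the deposited values are not counts; a weighted limma fit (voom) on the recovered reads was. The members called, in the order Ishikawa, Ishikawa-S33Y, SNGM and HEC265, were 2, 3, 1 and 3 with SM08502 and 2, 4, 2 and 4 with the combination. A fit to 1 line's libraries alone gave 0 in Ishikawa, 0 in SNGM and 5 in HEC265 with SM08502, and 1, 0 and 7 with the combination. Re-centring gave 0 in SNGM and 1 in HEC265 with SM08502; quantile normalization gave 0 in SNGM with SM08502 and 4 in Ishikawa and 2 in HEC265 with the combination. Without both shallow libraries SNGM had 3 members called with SM08502 and 1 with the combination, and the average under SM08502 had 5 instead of 3. Voom gave 2 and 1 in SNGM, 5 in HEC265 and 5 for the average with SM08502. The RNA length score as a covariate, chosen from a gene list made after seeing the data, gave 5 in Ishikawa-S33Y, 2 in SNGM and 6 for the average. Members whose SM08502 change differed between lines numbered 0, but 1 with quantile normalization, 2 without the shallow libraries and 1 with the length score. For the combination they numbered 4, but 2 with pseudocount 0.1, 2 without the trend and 7 with the length score. The causes were not tested. Without each library in turn the counts with SM08502 ranged from 1 to 2, 1 to 3, 0 to 1 and 0 to 1 in the 4 lines, with the combination from 2 to 2, 2 to 4, 1 to 3 and 0 to 2, for combination against SM08502 in SNGM from 0 to 3, for the difference between lines from 0 to 1 with SM08502 and from 2 to 7 with the combination.

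Replicate numbers did not pair the libraries in 1 direction: deviations of same-numbered libraries correlated with r from −0.65 to 0.86 over 6083 genes. In Ishikawa r was 0.86 for paclitaxel with SM08502 and −0.57 for vehicle with SM08502. In SNGM it was 0.84 for vehicle with paclitaxel and −0.61 for vehicle with SM08502. In the other lines it lay between −0.15 and 0.33. Deviations were thus shared between groups in Ishikawa and SNGM, while the reported fit takes libraries as independent. With the replicate block the members called with SM08502 numbered 2, 3, 1 and 3 in that order of lines; in HEC265 ATM (adjusted p = 0.040) was called in place of FANCI (0.050). The average with SM08502 then had 4 members called, CHEK2 being added (0.048), and FANCI lost its difference between lines with the combination (0.053). Pairing crossed numbers, where such correlations were below −0.1, left 2 members called in Ishikawa and 1 in SNGM with SM08502. Re-centring moved the median of all genes for HEC265 against Ishikawa with vehicle from −0.17 to +0.04.

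Values of members that turned sign were not called, with the exception of BRCA1 and BRCA2 in HEC265 against Ishikawa with vehicle. BRCA2 turned in Ishikawa with SM08502 (+0.030 re-centred, +0.0092 quantile, +0.079 length score), with the combination in Ishikawa (+0.053, length score), HEC265 (−0.081, re-centred), Ishikawa-S33Y (−0.077) and the average (−0.045), the last 2 without the shallow libraries. CHEK1 turned in SNGM with the combination (−0.13 without the shallow libraries, −0.043 with voom), PALB2 there to −0.016 (quantile), FANCD2 in HEC265 with SM08502 to −0.037 (re-centred), BRCA1 there to +0.043 and CHEK2 in Ishikawa with the combination to −0.024 (both length score). Between vehicle groups, the length score turned BRCA1 (−0.18), BRCA2 (−0.11) and PALB2 (−0.12) for HEC265 against Ishikawa, BRCA2 (−0.76) and CHEK2 (+0.23) for SNGM against Ishikawa, and BRCA2 for Ishikawa-S33Y against Ishikawa (−0.52) and SNGM against Ishikawa-S33Y (−0.24); re-centring turned BRCA1 for SNGM against Ishikawa-S33Y (+0.085). Leaving out single libraries gave, in Ishikawa with SM08502, −0.43 to +0.037 for BRCA1, −0.33 to +0.25 for BRCA2 and −0.039 to +0.34 for CHEK2. With the combination it gave −0.39 to +0.083 for BRCA2, −0.023 to +0.075 for PALB2 and −0.065 to +0.20 for CHEK2 in Ishikawa, −0.077 to +0.38 for BRCA2 in Ishikawa-S33Y, −0.21 to +0.24 for PALB2 and −0.13 to +0.27 for CHEK1 in SNGM, −0.047 to +0.10 for BRCA2 in HEC265, and averages of −0.029 to +0.090 for BRCA2 and −0.089 to +0.012 for CHEK1. CHEK1 with SM08502 ranged from −0.22 to +0.011 in SNGM and −0.053 to +0.044 in HEC265. With vehicle, BRCA2 ranged from −0.16 to +0.31 for Ishikawa-S33Y against Ishikawa, and BRCA1 from −0.086 to +0.032 for SNGM against Ishikawa-S33Y.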

Other observations

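Besides ATM, 3 members with an upstream entry have an oppositely read neighbour start within 1000 bp that was tested. DCTN5, 156 bp from PALB2, changed under SM08502 by +0.24 for Ishikawa, +0.48 for Ishikawa-S33Y, +0.27 for SNGM and +0.24 for HEC265, beside +0.12, −0.07, +0.11 and +0.36 for PALB2. HSCB, an iron-sulfur cluster chaperone 212 bp from CHEK2, changed by +0.86, −0.03, +0.02 and +0.40, beside +0.15, −0.10, −0.56 and −0.44 for CHEK2. BRCA1 has 2 listed starts (windows chr17:43170328-43170577 and chr17:43125365-43125614), and each distance is from the nearer one. NBR1, at 82 bp, changed by −0.04, +0.03, +0.38 and −0.16, and NBR2, at 193 bp, by −0.12, −0.11, −0.0023 and +0.20. BRCA1 changed by −0.20, −0.54, +0.17 and −0.10.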
